A study of Mus musculus with 15 samples.

Results

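The luminal epithelium (LE) of the mouse uterus was compared between E-OEX and wild-type animals on day 4. The comparison rested on 6 of the 15 libraries of the study: 3 of E-OEX LE, whose genotype label states that Notch1 is overexpressed, and 3 of wild-type LE. All 6 carry the labels luminal epithelium and day 4, and E-OEX is used here as a name because the labels do not spell it out. The labels give neither the promoter or Cre line behind the overexpression nor the ages of the animals. The other 9 libraries hold glandular epithelium (GE) of both genotypes and LE of a further Notch1-overexpressing line, and the GE libraries enter only where a luminal difference is set against the glandular one. Members were the genes listed in the tables of both genotypes. There are 6414 genes in the wild-type tables and 4903 in those of E-OEX, and 2933 of the 8384 genes of either list are in both. Each list holds genes that differ at least 2-fold between GE and LE in that genotype, apart from 1 gene just under that ratio. A gene that was equal in GE and LE of either genotype is therefore outside the comparison.

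Notch proteins are receptors on the cell surface that are cut after binding a ligand on a neighbouring cell. The freed intracellular part enters the nucleus, joins the DNA-binding protein RBPJ and switches on target genes, among them the Hey family of repressors. The LE is the sheet of cells that lines the uterine cavity and to which the embryo attaches. In early mouse pregnancy, ovarian estrogen and progesterone change this sheet from a secretory, dividing state into one that can receive the embryo, while the glands below it secrete factors such as leukemia inhibitory factor. Notch1 itself was not analysed in these 6 libraries, so the genotype labels could not be compared with its level. The labelled tissue was checked on its markers: 5 of 6 luminal markers were in both lists, and their summed values were 31181 to 66464 rescaled reads in wild type and 13138 to 18775 in E-OEX. For 5 of 7 glandular markers the sums were 52.0 to 80.9 in wild type and 106 to 867 in E-OEX. The wild-type and E-OEX sums did not overlap for either marker set. Calb1 made up most of the luminal sum in wild type. Of the glandular markers, Ttr was at or under 3 reads in every library and Spink1 had 0 reads in each E-OEX library.

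Values are rescaled reads, the read counts recovered from the deposited tables and put on a common scale over the 6 libraries. The 6 libraries hold 1243402 to 1887719 reads in the 2933 genes. The 10 genes with most reads took 27.25% to 29.57% of these reads in wild type and 15.62% to 18.98% in E-OEX. The libraries of a group differed from each other: the mean absolute log2 difference was 1.43 between wild-type replicates 1 and 2. E-OEX replicate 3 was nearer to wild-type replicate 1 (1.09) than to E-OEX replicates 1 and 2 (1.16 and 1.12). It was also the E-OEX library nearest to wild type in 78 of the 133 genes called higher and in 90 of the 144 called lower. Summed stromal markers (15 of 18 listed) were 697, 10938 and 3784 in wild-type replicates 1 to 3 and 4130, 3043 and 972 in E-OEX replicates 1 to 3. The part of these differences between libraries in the results was not tested, beyond leaving out each library in turn.

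E-OEX LE differed from wild-type LE in 277 of 2600 genes tested (limma, Benjamini-Hochberg adjusted p under 0.05), which is 10.7%. Of these, 133 genes (5.12%) were higher and 144 (5.54%) lower. The wild-type and E-OEX values did not overlap for 777 genes, or 29.9% of those tested. At an unadjusted p under 0.05 there were 664 genes. The log2 fold change of E-OEX minus wild type had a median of -0.09 and quartiles of -1.05 and 0.84. The smallest absolute log2 fold change among the 277 was 1.44. On simulated data, the test called 0% of genes changed by 1 on the log2 scale, 22% of those changed by 2, 50% by 3 and 92% by 4, so smaller changes were mostly not detectable with 3 libraries in each group. On the values as deposited, without rescaling the genotypes together, 263 genes passed and 58.6% of them were higher, against 48.0% after rescaling, with a median log2 fold change of 0.08 over all tested genes. Leaving out 1 library moved the count to between 56 (without wild-type replicate 3) and 323 (without wild-type replicate 1 or E-OEX replicate 3). It was 62 without E-OEX replicate 2, 76 without E-OEX replicate 1 and 117 without wild-type replicate 2. None of the 277 genes reversed its direction in any alternative. The named genes said below to lose the call without a library also lost it with no filter on low values, except Gng12 and Ddx58.

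**Figure D1:**
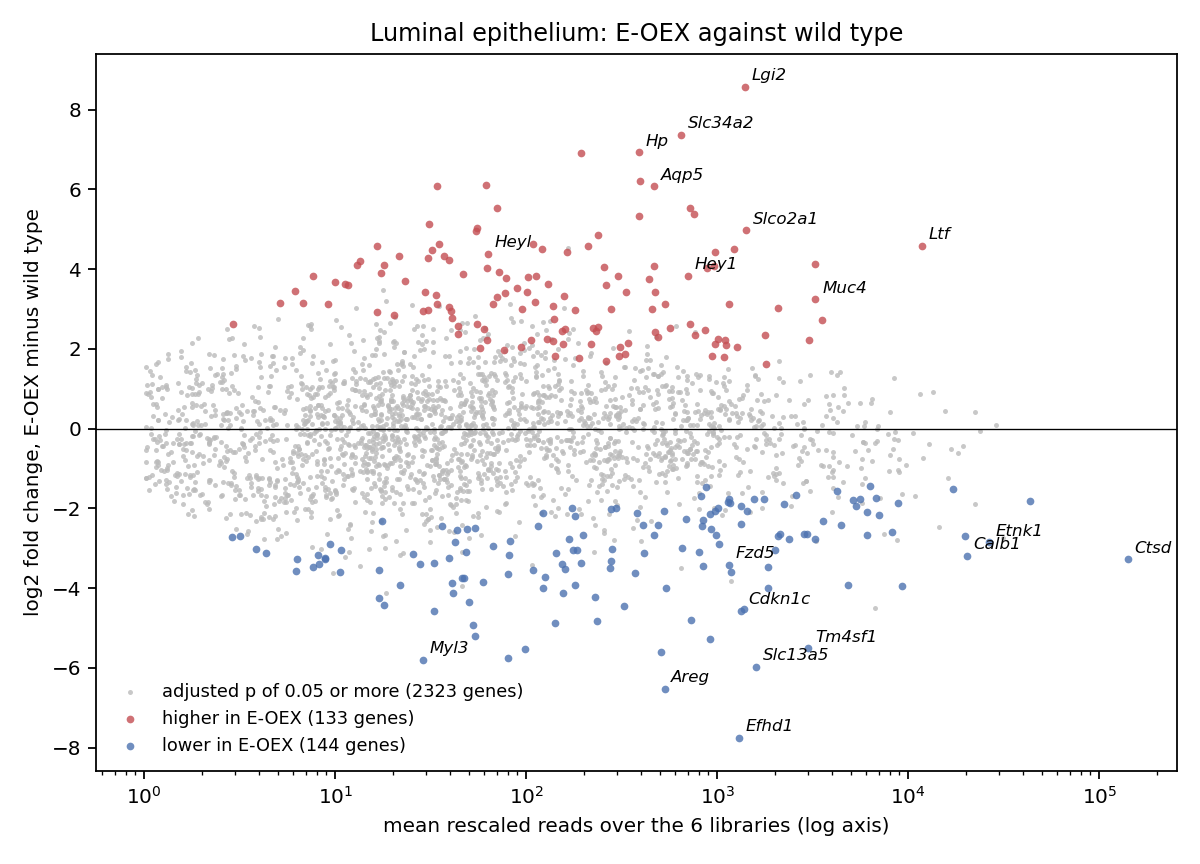
Each point is 1 of the 2600 tested genes, with its mean value over the 6 LE libraries on a log axis and its log2 fold change of E-OEX minus wild type. The 133 red genes are higher and the 144 blue genes lower in E-OEX (limma adjusted p under 0.05), and the grey genes did not pass.

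Lgi2, which encodes a secreted leucine-rich repeat protein, had the largest rise (chromosome 5, 52533517 to 52566462, GRCm38, minus strand). It read 8.27, 8.88 and 1.22 in wild-type replicates 1 to 3 and 3931, 3603 and 794 in E-OEX replicates 1 to 3. The log2 fold change of Lgi2 was 8.57 (SE 0.80, limma adjusted p = 0.00130). Efhd1, which encodes a calcium-binding protein of mitochondria, had the largest fall (chromosome 1, 87264363 to 87310839, plus strand). It read 1940.4, 2828 and 3030.2 in wild type and 7.84, 6.50 and 23.7 in E-OEX. The log2 fold change was -7.76 (SE 0.56, limma adjusted p = 0.000268). Areg, which encodes the epidermal growth factor family ligand amphiregulin, fell next furthest (chromosome 5, 91139599 to 91148432, plus strand). It read 1353, 1207 and 589.7 in wild type and 16.5, 2.79 and 17.5 in E-OEX. Its log2 fold change was -6.53 (SE 0.71, limma adjusted p = 0.00144). All 3 genes passed in each of the 17 alternatives.

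The 250 bases before the RefSeq start of Lgi2, Efhd1 and Areg are shown because these genes had the largest rise and the 2 largest falls. They are RefSeq promoters of build GRCm38.p6, given 5′ to 3′ on the gene's strand. The Lgi2 window is chr5:52566307-52566556 (minus strand), the Efhd1 window chr1:87264103-87264352 (plus strand) and the Areg window chr5:91139349-91139598 (plus strand). GENCODE M21 places the start of Lgi2 further upstream, so that 156 of the 250 bases of its window lie inside the GENCODE gene, against 0 for Efhd1 and Areg. Capitals mark matches to 4 motifs searched on both strands: TGGGAA, the core bound by RBPJ; TGACGTCA, the cyclic AMP response element; the progesterone or glucocorticoid response element; and the palindromic estrogen response element.
Lgi2: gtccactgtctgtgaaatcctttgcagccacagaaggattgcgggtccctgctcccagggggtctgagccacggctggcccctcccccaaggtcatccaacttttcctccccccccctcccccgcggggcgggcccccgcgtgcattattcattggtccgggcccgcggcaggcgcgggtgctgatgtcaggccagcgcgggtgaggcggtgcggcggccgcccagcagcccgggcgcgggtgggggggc
Efhd1: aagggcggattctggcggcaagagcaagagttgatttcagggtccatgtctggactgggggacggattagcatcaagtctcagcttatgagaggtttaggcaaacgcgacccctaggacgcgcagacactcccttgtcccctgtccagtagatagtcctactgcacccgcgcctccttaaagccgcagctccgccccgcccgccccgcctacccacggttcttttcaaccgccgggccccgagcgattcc
Areg: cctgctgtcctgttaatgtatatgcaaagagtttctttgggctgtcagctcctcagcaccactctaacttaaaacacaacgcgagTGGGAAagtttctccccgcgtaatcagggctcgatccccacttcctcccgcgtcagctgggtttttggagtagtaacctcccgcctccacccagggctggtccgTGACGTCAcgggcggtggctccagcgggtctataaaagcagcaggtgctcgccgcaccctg
The Lgi2 and Efhd1 windows held none of the 4 motifs and 21 and 19 CG dinucleotides, where the median over 32851 promoters was 6. The Areg window held TGGGAA at -165, TGACGTCA at -61 and 15 CG dinucleotides. TGGGAA was in 25 of 89 promoters of genes called higher (28.1%) and in 28 of 92 of genes called lower (30.4%). It was also in 28.1% of the promoters of tested genes and in 24.1% of all promoters of this length. TGACGTCA was in 3 of the 92 promoters of genes called lower (3.26%), those of Areg, Plk2 and Arl4d, in 1 of the 89 of genes called higher (Ggt1), and in 1.98% of the promoters of tested genes. The other 2 motifs were in 0 promoters of either set and in 0.719% (progesterone) and 0.06% (estrogen) of the promoters of tested genes.

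The identifier of Areg carries the name Mcub in the deposited tables, and so does a second identifier. GENCODE M21 gives the first (ENSMUSG00000029378) as Areg and the second (ENSMUSG00000027994) as Mcub, a subunit of the mitochondrial calcium uniporter. The first 60 coding bases of each, from the GENCODE M21 transcripts, are shown because the shared name hides that the genes differ, with the start codon in capitals.
Areg: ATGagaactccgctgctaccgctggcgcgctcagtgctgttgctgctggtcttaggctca
Mcub: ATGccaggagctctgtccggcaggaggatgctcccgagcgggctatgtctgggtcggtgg
The coding sequences are 744 and 1035 bases long with the stop codon. Mcub by this annotation read 204, 817 and 346 in wild type and 237, 92.9 and 58.8 in E-OEX, and the groups overlapped (log2 fold change -1.81, SE 0.67, limma adjusted p = 0.122). By identifier, the large fall is that of Areg. Names differed from GENCODE M21 for 39 of the shared genes, and GENCODE symbols are used throughout.

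The 15 largest rises included membrane transporters, cell division genes and surface or matrix proteins. Slc34a2, a sodium-phosphate transporter of the apical membrane, read 3.54, 3.95 and 3.67 in wild type and 2903, 729 and 225 in E-OEX (log2 fold change 7.37, SE 0.85, limma adjusted p = 0.00157). Slco2a1, which carries prostaglandins into cells, read 158, 71.0 and 53.8 in wild type and 2516, 2172 and 3569 in E-OEX. The log2 fold change was 4.97 (SE 0.51, limma adjusted p = 0.00144). Cenpa, the histone variant that marks centromeres, read 24.8, 38.5 and 30.6 in wild type and 1551, 2240.3 and 661 in E-OEX (log2 fold change 5.38, SE 0.55, limma adjusted p = 0.00144). Ccnf, a cyclin that acts in a ubiquitin ligase, rose from 3.54 to 14.8 in wild type to 402 to 1265 in E-OEX. Pif1, a DNA helicase, rose from 0 to 7.09 in wild type to 174 to 561 in E-OEX. Their log2 fold changes were 6.20 (SE 0.67) and 6.90 (SE 0.85). These 2 and Cenpa were not on the cell cycle list, of which only Tyms was in both tables (log2 fold change 0.37, adjusted p = 0.675), so the division programme as a whole was not analysed here.

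Among the other large rises, several genes had almost no reads in wild type. Galnt5, an enzyme that starts mucin-type sugar chains, had 0 reads in each wild-type library and read 87.8, 63.2 and 54.7 in E-OEX, at least 20.2-fold higher against a floor of 3 reads in each library. Hsd17b14, a steroid dehydrogenase, read 2.36, 2.96 and 0 in wild type and 154, 37.2 and 224 in E-OEX, at least 40.8-fold higher. Fbn2, a fibrillin of extracellular microfibrils, was 0 in 2 wild-type libraries and 3.95 in the other, and 76.0, 67.8 and 38.2 in E-OEX. Upk1a, a uroplakin of surface plaques, was 12.8 to 30.7 in wild type and 174, 2125 and 1950.3 in E-OEX, and Ggt1, a glutathione-cleaving surface enzyme, was 0 to 5.90 and 75.2, 206 and 43.3. The E-OEX values of Upk1a spread widely, with replicate 1 lowest. Slc40a1, the iron exporter ferroportin, was picked after its values were seen: it read 197, 55.2 and 84.4 in wild type and 1886, 3290.3 and 1819 in E-OEX (log2 fold change 4.51, SE 0.55, limma adjusted p = 0.00169). Galnt5, Hsd17b14, Fbn2 and Slc40a1 passed in all 17 alternatives. Upk1a did not pass with no filter on low values, and Ggt1 also not without wild-type replicate 3, E-OEX replicate 1 or E-OEX replicate 2 (adjusted p of up to 0.0586).

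The called genes with the most reads were Ltf, Slc7a11, St6gal1, Muc4 and Gng12 among the rises and Ctsd, Gsto1, Etnk1, Il17rb and Calb1 among the falls. Slc7a11, the cystine importer, read 698, 151 and 358 in wild type and 4990.3, 8856 and 4502 in E-OEX (log2 fold change 4.12, SE 0.58, limma adjusted p = 0.00418). St6gal1, which adds sialic acid to glycoproteins, read 694, 1061 and 1077 in wild type and 5419, 7099 and 5964 in E-OEX (log2 fold change 2.72, SE 0.39, limma adjusted p = 0.00431). The groups were well apart for both genes, and both passed in all 17 alternatives. Gng12, a G protein subunit, was 914 to 1146 in wild type and 3633 to 7178 in E-OEX, and it rose by 2.21 on the log2 scale (SE 0.41, limma adjusted p = 0.0126). Its call was lost without wild-type replicate 3 or E-OEX replicate 2 (adjusted p of up to 0.0702). Ctsd, the lysosomal protease cathepsin D, read 220885, 238631 and 274919 in wild type and 19739, 10100.4 and 79864 in E-OEX, and its log2 fold change was -3.28 (SE 0.69, limma adjusted p = 0.0185). Etnk1, an ethanolamine kinase, was 38606 to 45924 in wild type and 3828, 2609 and 21469 in E-OEX. Il17rb, a receptor for interleukin 17 family ligands, was 18243 to 43289 and 2716, 4047 and 10789. Their log2 fold changes were -2.86 (SE 0.71) and -2.69 (SE 0.59). In Ctsd, Etnk1 and Il17rb alike, E-OEX replicate 3 was the E-OEX library nearest to wild type. Ctsd, Etnk1 and Il17rb did not pass without wild-type replicate 2, wild-type replicate 3, E-OEX replicate 1 or E-OEX replicate 2 (adjusted p of up to 0.118, 0.143 and 0.106). Ctsd also did not pass after quantile normalization, and Etnk1 not in edgeR on the recovered reads.

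The other large falls were in membrane proteins, transporters and transcription regulators. Slc13a5, a citrate importer, read 3327, 1543 and 4438 in wild type and 15.7, 26.0 and 203 in E-OEX (log2 fold change -5.97, SE 0.86, limma adjusted p = 0.00431). Tm4sf1, a tetraspanin-like surface protein, read 5554, 6207 and 5664 in wild type and 226, 27.9 and 314 in E-OEX (log2 fold change -5.51, SE 0.79, limma adjusted p = 0.00427). Its neighbour on chromosome 3, Tm4sf4, read 104, 251 and 224 in wild type and 6.27, 0 and 7.22 in E-OEX (log2 fold change -5.53, SE 0.89, limma adjusted p = 0.00647). The 2 relatives thus fell by similar amounts. Myl3, a myosin light chain known from heart and slow muscle, read 85.0, 38.5 and 50.2 in wild type and 0 in each E-OEX library, at least 21.1-fold lower. Zbtb16, a zinc finger repressor induced by progesterone, read 1404, 353 and 1221 in wild type and 34.5, 1.86 and 50.5 in E-OEX (log2 fold change -5.61, SE 1.03, limma adjusted p = 0.0120). Cdkn1c, an imprinted inhibitor of cell division, read 1088, 3879 and 2756 in wild type and 80.7, 92.9 and 113 in E-OEX (log2 fold change -4.56, SE 0.53, limma adjusted p = 0.00157). Tm4sf1, Myl3 and Cdkn1c passed in all 17 alternatives, while Slc13a5 and Tm4sf4 did not pass with no filter on low values. Zbtb16 did not pass there or without wild-type replicate 3 (adjusted p of up to 0.0734).

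The remaining genes among the 15 largest falls had lower or more variable values. Nr4a3, a nuclear receptor of the immediate early class, read 65.0, 1834 and 3506 in wild type and 43.1, 6.50 and 21.7 in E-OEX, so wild-type replicate 1 lay near the E-OEX libraries. Nptx2, a secreted pentraxin, read 15.4, 234 and 61.2 in wild type and 0.784, 3.72 and 0 in E-OEX. Ntrk3, a neurotrophin receptor, was 59.2 to 165 in wild type and 0 to 9.28 in E-OEX. Their log2 fold changes were -5.26 (SE 1.31), -4.93 (SE 1.04) and -5.20 (SE 0.93). Grid2ip, Cwh43, Sparcl1 and the pseudogene Gm47135 also fell, by 4.82, 4.53, 4.58 and 4.86 on the log2 scale. All 7 of these genes lost the call without wild-type replicate 3 or E-OEX replicate 2, and all but Sparcl1 also without E-OEX replicate 1. Nr4a3, Nptx2, Cwh43, Sparcl1 and Gm47135 lost it without wild-type replicate 2 as well, and Nr4a3 also without E-OEX replicate 3 and on the values as deposited. Gm47135 lost it in edgeR as well. Adjusted p-values reached 0.145 for Nr4a3 and 0.0576 to 0.107 for the others.

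**Figure D2:**
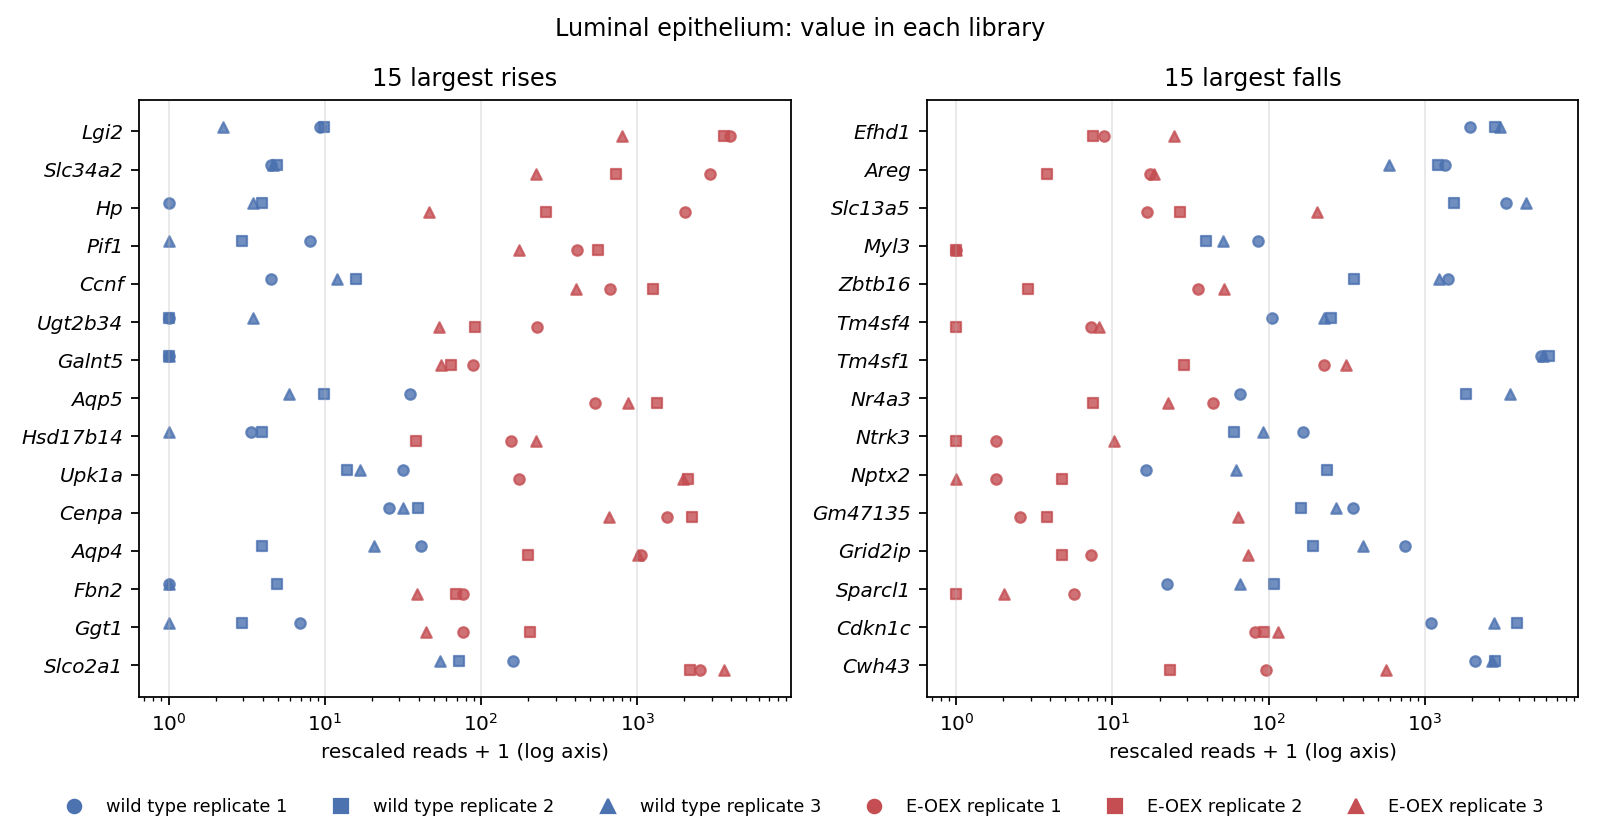
Rescaled reads plus 1 on a log axis for the 15 largest rises and the 15 largest falls, 1 row for each gene, with wild-type libraries in blue, E-OEX libraries in red and the replicate number as the marker shape. Only genes whose groups do not overlap were eligible, so red and blue are apart in every row by the choice of genes. E-OEX replicate 3 (red triangles) is often the red point nearest to blue.

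Of the 11 Notch effector genes in both tables, 3 rose, 0 fell and 8 did not pass, where 5.12% of all tested genes rose and 5.54% fell. The median log2 fold change was 0.98 against -0.09 over all tested genes. Heyl, a Hey family repressor, read 3.54, 4.93 and 3.67 in wild type and 106, 212 and 48.5 in E-OEX (log2 fold change 4.38, SE 0.71, limma adjusted p = 0.00647). Hey1, its relative, read 35.4, 102 and 179 in wild type and 947, 1874 and 1089 in E-OEX (log2 fold change 3.83, SE 0.62, limma adjusted p = 0.00647). Id1, an inhibitor of basic helix-loop-helix factors that is also a target of BMP signalling, read 672, 298 and 437 in wild type and 2865, 3784 and 4487 in E-OEX (log2 fold change 3.04, SE 0.44, limma adjusted p = 0.00431). The groups did not overlap for these 3 genes, and each passed in all 17 alternatives. Hey2, the third Hey gene, read 314, 142 and 299.7 in wild type and 227, 154 and 709 in E-OEX. Its groups overlapped and its log2 fold change, 0.30 with an SE of 0.63 (limma adjusted p = 0.802), turned to -0.07 without wild-type replicate 2 and to -0.18 without E-OEX replicate 3. The 3 Hey genes therefore did not move alike.

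The other Notch effectors did not pass. Cdkn1a, the cell cycle inhibitor p21, read 16.5, 56.2 and 36.7 in wild type and 249, 239 and 84.6 in E-OEX, just outside the threshold (log2 fold change 2.36, SE 0.66, limma adjusted p = 0.0505). Myc, a growth-promoting transcription factor, was 121 to 399 in wild type and 419 to 1372 in E-OEX (log2 fold change 1.80, SE 0.60, limma adjusted p = 0.0851). The groups did not overlap for Cdkn1a and Myc, which were higher in E-OEX, nor for Dtx3 (higher) and Tle1 (lower), both given below. Over all tested genes, 29.9% did not overlap. Over the alternatives Cdkn1a passed in 6 and Myc in 4. Tle1, a co-repressor used by Hes proteins, was 1763 to 3751 in wild type and 1243 to 1350.1 in E-OEX (log2 fold change -1.12, SE 0.42, limma adjusted p = 0.129). Sox9, Dtx3 and Dtx1 had log2 fold changes of 0.98, 0.97 and 0.57 with limma adjusted p-values of 0.168 to 0.692. Snai2 was at or below 3 reads in every library. Of the 7 Notch receptor, ligand and modulator genes in both tables, 0 passed, where 10.7% of all tested genes did. Their median log2 fold change was 0.03. Dll4, a ligand, had the next to largest fall of these, from 677, 273 and 295 in wild type to 114, 175 and 146 in E-OEX, without overlap (log2 fold change -1.40, SE 0.51, limma adjusted p = 0.110). Numbl, an adaptor that opposes Notch, had -1.46 (adjusted p = 0.168). Notch4 (0.04), the presenilin gene Psen2 (0.03) and Lfng (0.12), which modifies the receptor's sugars, had values near 0. That of Lfng turned to -0.26 without wild-type replicate 3 and to -0.25 without E-OEX replicate 1. The signs of Notch4 and Psen2 were not followed through the alternatives.

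Among genes of luminal receptivity, Areg, Calb1 and Lpar3 fell in E-OEX LE. These are 3 of 12 tested, where 5.54% of all tested genes fell, while 0 rose and 9 did not pass. The log2 fold change was negative for 11 of the 12, with a median of -1.86. Calb1, a calcium-binding protein of the LE, read 51293, 17155 and 39164 in wild type and 3578, 1377 and 9246 in E-OEX (log2 fold change -3.19, SE 0.70, limma adjusted p = 0.0203). Lpar3, a lysophosphatidic acid receptor needed for embryo spacing, read 7197, 5956 and 8691 in wild type and 1038, 838 and 2869 in E-OEX (log2 fold change -2.41, SE 0.51, limma adjusted p = 0.0196). Every E-OEX library was below every wild-type library for both. Acod1, an itaconate-producing enzyme that marks the receptive LE, read 11932, 12236 and 10378 in wild type and 4445, 23.2 and 1207 in E-OEX. Its E-OEX values spread widely and it did not pass (log2 fold change -4.50, SE 1.49, limma adjusted p = 0.0852), though it did in 2 of the 17 alternatives, which include the replicate block. Wnt7a, a luminal Wnt ligand, was 3373 to 4822 in wild type and 1910.2, 6554 and 1661 in E-OEX, with overlap (log2 fold change -0.54, SE 0.55, limma adjusted p = 0.574). The exception to the sign was Wnt7b (1.48, adjusted p = 0.0663). Both Calb1 and Lpar3 lost the call without wild-type replicate 3, E-OEX replicate 1 or E-OEX replicate 2, and Lpar3 also without wild-type replicate 2 (adjusted p of up to 0.0971 and 0.106). In the EGF family, Areg was the 1 gene of 4 tested that passed; the receptor gene Erbb2 had a log2 fold change of 0.09 and the feedback inhibitor Errfi1 one of -0.99 (adjusted p = 0.194).

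Gland genes moved in both directions. Of 11 tested, 2 rose, 1 fell and 8 did not pass, with a median log2 fold change of 1.04. The shares over all tested genes were 5.12% for rises and 5.54% for falls. Prap1, a secreted acidic protein of uterine epithelium, read 112, 80.9 and 68.5 in wild type and 1266, 709 and 3506 in E-OEX (log2 fold change 4.09, SE 0.60, limma adjusted p = 0.00431), and passed in all 17 alternatives. Though on the gland list, Prap1 was higher in LE than in GE in both genotypes. In GE its mean deposited value was 0.64 in wild type and 12.4 in E-OEX. Wfdc3, a whey acidic protein family member, was 4.72 to 7.89 in wild type and 267, 15.8 and 172 in E-OEX (log2 fold change 3.78, SE 0.99, limma adjusted p = 0.0394). Foxa2, the transcription factor of uterine glands, read 16.5, 3.95 and 13.5 in wild type and 366, 42.7 and 50.5 in E-OEX. These did not overlap but E-OEX replicate 1 was far above replicates 2 and 3, and the gene did not pass (log2 fold change 3.12, SE 0.92, limma adjusted p = 0.0594), though it did in 4 of the 17 alternatives. Lif, the glandular cytokine, read 23.6, 51.3 and 46.5 in wild type and 445, 151 and 35.1 in E-OEX, with overlap (log2 fold change 1.77, SE 0.86, limma adjusted p = 0.228), and passed in 2 alternatives. E-OEX replicate 1 was highest for Foxa2, Lif and the summed glandular markers, and the part of gland cells in these values was not tested. Sult1d1, a sulfotransferase, fell from 7241, 2562 and 6766 to 569.6, 335 and 2067 (log2 fold change -2.77, SE 0.69, limma adjusted p = 0.0333). Unlike Prap1, Wfdc3 and Sult1d1 were higher in GE than in LE in both genotypes. Wfdc3 lost its call without any 1 library other than E-OEX replicate 2 and with a pseudocount of 10 (adjusted p of up to 0.158). Sult1d1 lost it without wild-type replicate 1, wild-type replicate 3, E-OEX replicate 1 or E-OEX replicate 2, and in edgeR on the recovered reads (up to 0.142).

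Among genes known to be induced by estrogen and genes of mucosal defence, Ltf, Aqp5 and Hp rose and Sprr2g fell. Over all tested genes 5.12% rose and 5.54% fell. Of 14 estrogen-induced genes tested, 2 rose (Aqp5 and Ltf), 1 fell (Sprr2g) and 11 did not pass, with a median log2 fold change of 0.78. Of 9 mucosal defence genes, 2 rose (Hp and Ltf, the latter on both lists), 0 fell and 7 did not pass, with a median of 1.28. Ltf, the iron-binding secretory protein lactotransferrin, read 2758, 401 and 625 in wild type and 32239.7, 13799.6 and 21246 in E-OEX (log2 fold change 4.58, SE 0.69, limma adjusted p = 0.00479). Hp, the hemoglobin-binding protein haptoglobin, read 0, 2.96 and 2.45 in wild type and 2022, 260.2 and 45.4 in E-OEX, at least 229-fold higher. The E-OEX values of Hp spread widely, with replicate 1 highest, and the bound is 45.1-fold without that library. In GE the mean deposited value of Hp was 2039 in wild type and 7774 in E-OEX. E-OEX replicate 1 also had the highest glandular marker sum, and the part of gland cells in the luminal Hp values was not tested. C3, the central complement component, is also estrogen-induced: it read 839.7, 13144 and 4236 in wild type and 20564, 4725 and 6845 in E-OEX, with overlap (log2 fold change 1.28, SE 0.92, limma adjusted p = 0.412). Clca3a2, a chloride channel regulator, was 1.22 to 13.8 in wild type and 853, 102 and 14.4 in E-OEX (log2 fold change 4.53, SE 1.33, limma adjusted p = 0.0594), and passed in 6 of the 17 alternatives. Sprr2g belongs to the small proline-rich protein family and is typed as a polymorphic pseudogene in GENCODE M21. It read 351, 5034 and 1335 in wild type and 232, 96.6 and 58.8 in E-OEX (log2 fold change -3.59, SE 0.89, limma adjusted p = 0.0329), whereas its relative Sprr2f had 1.17 (adjusted p = 0.288). Reads of such close relatives may be split between them by the counting. Ltf did not pass with no filter on low values, Hp not there or without E-OEX replicate 2 (adjusted p of up to 0.0665). Sprr2g lost the call without any 1 library other than wild-type replicate 1, and on the values as deposited (up to 0.130).

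Of the interferon genes, 4 passed, and the share over all tested genes was 10.7%. Of 20 tested, 3 rose (Ifit3, Ifi44 and Oas3), 1 fell (Ddx58), 16 did not pass and 18 were positive, with a median of 0.87. Ifit3, an antiviral protein, read 62.6, 48.3 and 83.2 in wild type and 683, 305 and 204 in E-OEX (log2 fold change 2.45, SE 0.56, limma adjusted p = 0.0245). Ifi44 was 106 to 204 in wild type and 525 to 1329.6 in E-OEX (2.30, SE 0.51), and Oas3, a sensor of double-stranded RNA, was 351 to 407 and 890.2 to 2736 (1.82, SE 0.51). Ddx58, which encodes the RNA sensor RIG-I, read 8619, 9225 and 11622 in wild type and 2371, 1625 and 3155 in E-OEX (log2 fold change -2.08, SE 0.41, limma adjusted p = 0.0149), opposite to the other 3. Ifit3, Ifi44 and Oas3 lost the call without wild-type replicate 2 or 3 or E-OEX replicate 1 or 2, and Oas3 also without wild-type replicate 1, with a pseudocount of 0.1 or 10 and in 1 fit over the 4 groups (adjusted p of up to 0.0902, 0.0840 and 0.181). Ddx58 lost it without wild-type replicate 3, E-OEX replicate 1 or E-OEX replicate 2 (up to 0.10). Of 8 chemokine and cytokine genes tested, 0 rose and 2 fell: Il17rb, given above, and Cxcl12, a chemokine, which was 9.79 to 22.7 in wild type and 0 to 3.72 in E-OEX. The Cxcl12 call was lost without any 1 of the 6 libraries, with a pseudocount of 0.1, on the values as deposited, in edgeR and with a replicate block (adjusted p of up to 0.129).

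Among channel, junction and mucin genes, 8 passed, and the share over all tested genes was 10.7%. Of 8 ion and water channel genes tested, 2 rose and 1 fell, all 3 of them aquaporins. Aqp5, the water channel of secretory epithelia, read 34.2, 8.88 and 4.89 in wild type and 532, 1338 and 876 in E-OEX (log2 fold change 6.07, SE 0.72, limma adjusted p = 0.00157) and passed in all 17 alternatives. Aqp4 was 40.2, 2.96 and 19.6 in wild type and 1058, 198 and 1018 in E-OEX (log2 fold change 5.32, SE 0.94, limma adjusted p = 0.0112). Aqp1, an aquaporin also abundant in vessels, fell from 228, 438 and 201 to 75.2, 35.3 and 22.7 (log2 fold change -2.76, SE 0.60, limma adjusted p = 0.0203). Of 15 junction, keratin and mucin genes, 5 rose and 0 fell, with a median of 0.99. Muc4, a membrane mucin that coats the LE, read 717, 615 and 249.6 in wild type and 12218, 3824 and 2002 in E-OEX (log2 fold change 3.24, SE 0.68, limma adjusted p = 0.0185). Muc20, which overlaps Muc4 on chromosome 16, read 52.0, 40.4 and 34.3 in wild type and 1522, 852 and 293 in E-OEX (log2 fold change 4.09, SE 0.63, limma adjusted p = 0.00518). Whether reads in the overlap were assigned by strand is not given in the sources used here, so the pair cannot be fully told apart. The tight junction genes Cldn2 (4.27, SE 0.93) and Cldn1 (2.06, SE 0.45) and the keratin Krt83 rose as well. Krt83 read 0, 1.97 and 0 in wild type and 5.16 to 44.6 in E-OEX, at least 6.66-fold higher, or 3.42-fold without E-OEX replicate 2. In GE the mean deposited value of Krt83 was 4346 in wild type and 3078 in E-OEX, and the part of gland cells was not tested. Cdh1, the adhesion protein E-cadherin, was 20359.6 to 23599 in wild type and 11404, 12304 and 19924 in E-OEX (log2 fold change -0.62, SE 0.41, limma adjusted p = 0.368). Muc4, Cldn1, Cldn2 and Krt83 lost the call without wild-type replicate 3, E-OEX replicate 1 or E-OEX replicate 2, and Krt83 also without wild-type replicate 1 or 2, with a pseudocount of 10 or with a mean value of at least 10 (adjusted p of up to 0.0912, 0.131, 0.0886 and 0.147). Aqp4 lost it without E-OEX replicate 1 and Aqp1 without wild-type replicate 2, wild-type replicate 3 or E-OEX replicate 2 (up to 0.0637 and 0.0823).

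Steroid and xenobiotic enzymes and lipid genes included large changes in each direction. Of 17 enzymes tested, 4 rose and 2 fell, with a median log2 fold change of -0.08. For comparison, 5.12% of all tested genes rose and 5.54% fell. Ugt2b34, which attaches glucuronic acid to steroids, read 0, 0 and 2.45 in wild type and 226, 91.1 and 52.6 in E-OEX, at least 36.3-fold higher, or 21.2-fold without E-OEX replicate 1. In GE its mean deposited value was 10.8 in wild type and 5893 in E-OEX, and the part of gland cells was not tested. Fmo1, a flavin monooxygenase, read 11.8, 21.7 and 7.34 in wild type and 751, 341 and 131 in E-OEX (log2 fold change 4.59, SE 0.73, limma adjusted p = 0.00647). Its neighbour Fmo2 read 468, 273 and 464 in wild type and 1642, 1039 and 2762 in E-OEX (2.10, SE 0.49), and Adh1, an alcohol dehydrogenase, 95.7, 14.8 and 58.7 against 364, 262 and 1207 (3.44, SE 0.79). Gsto1, a glutathione transferase, fell from 70249, 62108 and 66202 to 19475, 10713 and 31957 (log2 fold change -1.81, SE 0.48, limma adjusted p = 0.0414), and Sult1d1 fell as given above. Of 12 lipid and prostaglandin genes, 2 rose (Slco2a1 and Sqle) and 1 fell (Ptger2). Sqle, a cholesterol synthesis enzyme, read 62.6, 52.3 and 44.0 in wild type and 914, 1238 and 331 in E-OEX (log2 fold change 3.76, SE 0.57, limma adjusted p = 0.00490). Ptger2, the prostaglandin E2 receptor EP2, read 2851, 3465 and 3553 in wild type and 281, 109.6 and 807 in E-OEX (log2 fold change -3.48, SE 0.65, limma adjusted p = 0.0125). The prostaglandin transporter and this receptor thus moved in opposite directions, and the synthases Ptgs1 (-0.16) and Ptgs2 (-0.40) did not pass (adjusted p = 0.863 and 0.803). Ugt2b34, Fmo1 and Sqle passed in all 17 alternatives. Ptger2 lost the call without wild-type replicate 3 or E-OEX replicate 1, Fmo2 without wild-type replicate 2, wild-type replicate 3 or E-OEX replicate 1, and Adh1 without each of these or E-OEX replicate 2 (adjusted p of up to 0.0637, 0.0983 and 0.10). Gsto1 lost it without any 1 library other than E-OEX replicate 3 and in 6 of the other 11 alternatives (up to 0.293).

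The lists of signalling, growth, protease and developmental genes are set against the 10.7% of all tested genes that passed. Of 10 Wnt pathway genes, 2 rose and 1 fell. Wnt4, a ligand, read 223, 96.7 and 39.1 in wild type and 957, 888 and 515 in E-OEX (log2 fold change 2.99, SE 0.64, limma adjusted p = 0.0196), and the receptor gene Fzd7 was 40.4 to 50.2 and 116 to 335 (2.21, SE 0.55). Fzd5, another Wnt receptor, read 1734, 2109.9 and 2452 in wild type and 157, 219 and 213 in E-OEX (log2 fold change -3.41, SE 0.40, limma adjusted p = 0.00157), the libraries of each group lying close together, and passed in all 17 alternatives. Of 13 TGF-beta and BMP genes, Id1 alone passed. Of 9 growth and stress regulators, 0 rose and 2 fell, Cdkn1c and Plk2, a kinase, which was 2097 to 3250.2 in wild type and 541 to 999 in E-OEX (log2 fold change -1.77, SE 0.42, limma adjusted p = 0.0289). Of 16 protease and inhibitor genes, 2 rose (Klk10 and Wfdc3) and 2 fell (Ctsd and Serpina1e). Klk10, a kallikrein, was 27.6 to 150.0 in wild type and 626 to 3623 in E-OEX (log2 fold change 4.02, SE 0.79, limma adjusted p = 0.0149). Serpina1e, one of several near-identical antitrypsin genes whose reads may be split between copies, was 7900.2 to 9629.8 in wild type and 331, 259 and 2168 in E-OEX (-3.93, SE 0.72, limma adjusted p = 0.0120). Of 15 developmental factors, 1 rose (Foxq1, 4.33, SE 0.81) and 1 fell (Hoxa10, -3.37, SE 0.81), with a median of -1.05. Hoxa10, a homeobox gene of the uterus that is known mainly from stroma at this stage, read 17.7, 109 and 58.7 in wild type and 6.27, 2.79 and 3.09 in E-OEX. Wild-type replicate 2, which had the highest stromal marker sum, was also highest for Hoxa10, and the part of stroma in that fall was not tested. Wnt4, Fzd7, Plk2, Klk10, Serpina1e, Foxq1 and Hoxa10 each lost the call without wild-type replicate 3, E-OEX replicate 1 or E-OEX replicate 2 (adjusted p of up to 0.145). Wnt4, Fzd7, Plk2 and Hoxa10 lost it also without wild-type replicate 2, Fzd7 without wild-type replicate 1, Hoxa10 without E-OEX replicate 3 and Plk2 on the values as deposited.

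**Figure D3:**
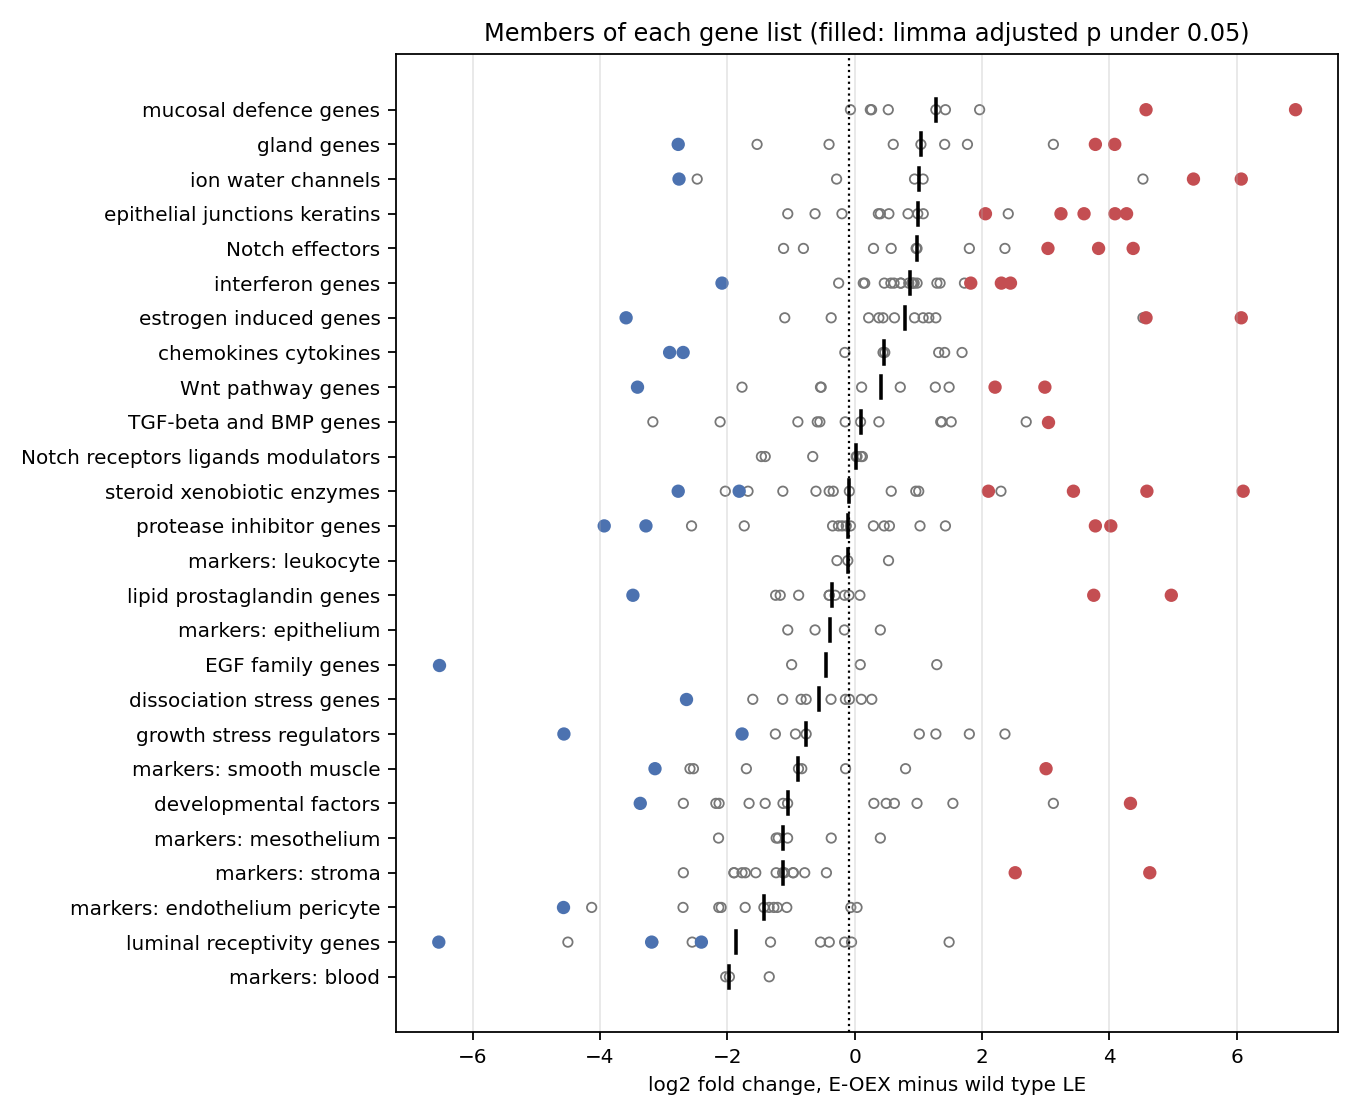
Log2 fold change of E-OEX minus wild-type LE for each tested member of the lists with 3 or more such members, 1 row for each list. Filled points passed (red higher, blue lower), the short bar is the list's median and the dotted line the median of all tested genes (-0.09). Receptivity genes lie mostly left of the line and Notch effectors mostly right of it.

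Markers of other cell types moved in both directions, where 5.12% of all tested genes rose and 5.54% fell. Of 15 stromal genes, 13 had negative log2 fold changes and none of these passed, while Postn (0, 19.7 and 17.1 in wild type; 361, 130.1 and 121 in E-OEX) and Fn1 (109.8, 198 and 121; 1119.7, 1542 and 295), both matrix proteins, rose. Col1a1, a defining fibroblast collagen, read 61.4, 1631 and 519.9 in wild type and 537, 225 and 84.6 in E-OEX, and its log2 fold change of -0.78 turned to 0.28 without wild-type replicate 2 and to 0.06 without E-OEX replicate 3. The groups overlapped for this collagen and not for Postn and Fn1, whose calls were lost without wild-type replicate 3, E-OEX replicate 1 or E-OEX replicate 2, for Fn1 also without wild-type replicate 1 or 2 and for Postn with a pseudocount of 0.1 (adjusted p of up to 0.129 and 0.141). Summed smooth muscle markers (10 of 12 listed) were 203 to 683 in wild type and 449.7 to 731 in E-OEX; Smtn rose (3.01, SE 0.63), Myl9 fell (-3.13, SE 0.80), and Acta2, the defining actin, was 30.6 to 95.7 and 2.06 to 35.3. Summed endothelial and pericyte markers (13 of 14 listed) were 340.1 to 766 and 163 to 391, and 12 of the 13 log2 fold changes were negative, of which that of Sparcl1 passed. Summed blood markers (3 of 5 listed) were 53.3 to 96.8 in wild type and 12.1 to 25.1 in E-OEX. Of 16 leukocyte markers 3 were listed, with sums of 387 to 421 and 293 to 527. In tissue RNA, fewer cells of a type and less RNA in each cell cannot be told apart. The immediate early gene Nr4a1, which can respond to handling of tissue, fell from 1257, 5851 and 4134 to 783, 368 and 430.1 (log2 fold change -2.64, SE 0.60, limma adjusted p = 0.0239), and the other 9 such genes did not pass. Smtn lost the call without wild-type replicate 3, E-OEX replicate 1 or E-OEX replicate 2, and Myl9 and Nr4a1 without any 1 library, except that Nr4a1 kept it without wild-type replicate 1, and Myl9 lost it also with a pseudocount of 10 and on the values as deposited (adjusted p of up to 0.0873, 0.125 and 0.121).

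The called genes were set against the epithelium in which they are normally higher. Over all tested genes, 58.7% were higher in GE than in LE in both genotypes, 37.2% higher in LE in both and 4.08% switched sides. Among genes called higher in E-OEX LE the shares were 43.6%, 26.3% and 30.1%, and among those called lower 30.6%, 47.9% and 21.5%. These shares are a description, since the lists were selected on that ratio and a luminal change moves it. Of the 277 called genes, 273 were also tested in GE. There, 179 had the same direction, 80 passed in the same direction and 28 passed in the opposite one, where 23.5% of 2851 genes passed in GE overall. A test of the difference between the luminal and the glandular effect passed for 144 of the 277 (limma interaction, adjusted p under 0.05), and for 10.7% of all 2933 genes. The called genes were chosen for their luminal effect, so a larger share is built into that count.

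Slco2a1, Fmo2, Wnt4 and Efhd1 are examples of genes whose luminal and glandular effects differed. Fold changes in LE and in GE are from reads rescaled within each epithelium, while the differences are from the deposited values. A difference is therefore not the exact result of subtracting the 2. The log2 fold change of Slco2a1 was 4.97 in LE and -1.16 in GE, a difference of 5.84 (SE 0.54, limma adjusted p = 0.000101). That of Fmo2 was 2.10 in LE and 6.11 in GE, so the glandular rise was the larger (limma adjusted p = 0.00113 for the difference). Wnt4 rose in LE (2.99) and fell in GE (-2.66, limma adjusted p = 0.00121 in GE and 0.00152 for the difference). Efhd1 fell by 7.76 in LE, with 0.19 in GE (adjusted p = 7.22e-05 for the difference). By contrast, Id1 had 3.04 in LE and 2.62 in GE and Hey1 3.83 and 2.59, and their differences did not pass (limma adjusted p = 0.922 and 0.462). Heyl, at 4.38 in LE and 1.04 in GE, did differ (limma adjusted p = 0.0210), and Hey2, with 0.30 in LE, rose by 3.31 in GE (adjusted p = 0.0148 for the difference).

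**Figure D4:**
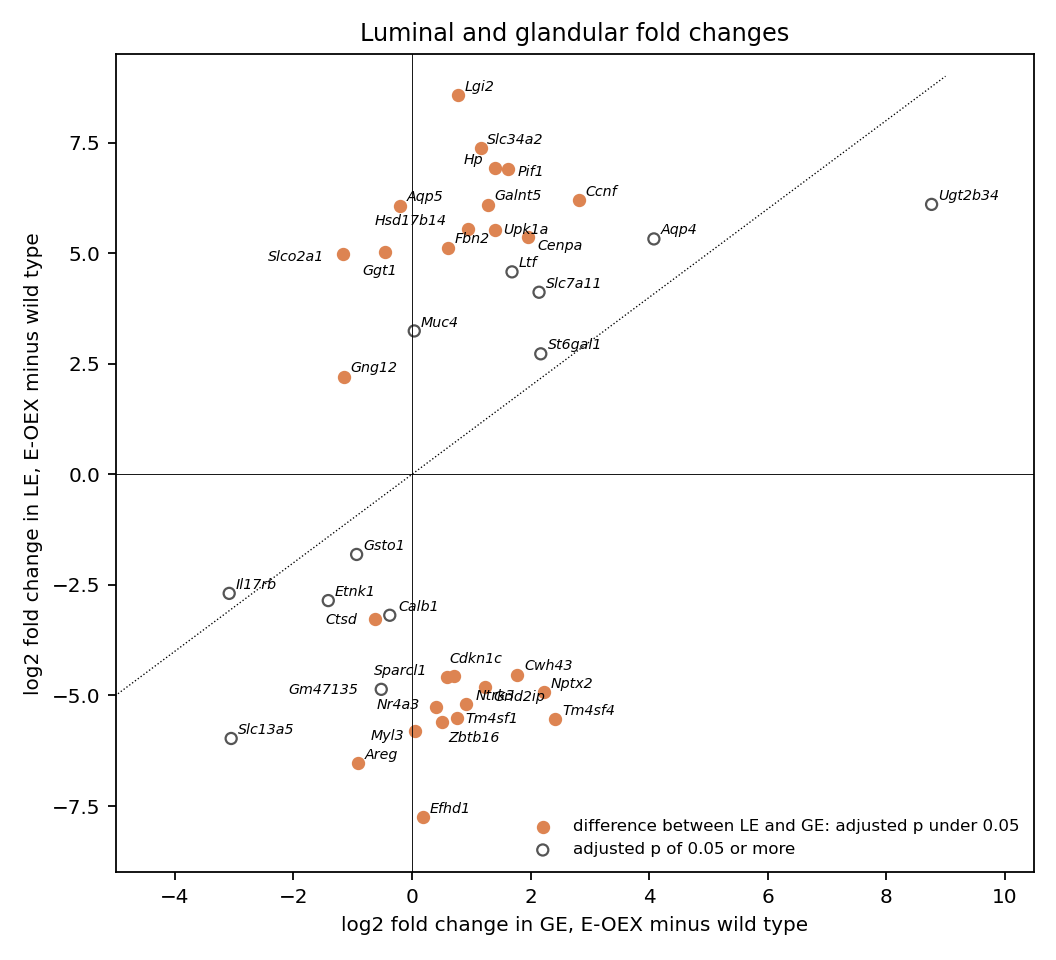
Log2 fold change of E-OEX minus wild type in GE (x axis) and LE (y axis) for 40 genes with the largest luminal changes or the most reads among called genes. Filled points are the 28 genes whose luminal and glandular effects differed (limma interaction, adjusted p under 0.05), and the dotted line marks equal effects.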

How the data were processed

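RNA sequencing was done on total RNA, with libraries built with a NEBNext Ultra kit, per the labels' protocols. The deposited values are a signal: read counts that the authors divided by 1 factor in each library, which was read from the values, since 100% of them lie within 0.01 of a whole multiple of the library's smallest step. GRCm38 is the build per the submitters' processing notes, while the aligner, counter, annotation and use of strand are not given in the sources used here. Reads were recovered by that step, and the 6 libraries were rescaled together with TMM (edgeR 4.0.16), because the sources used here do not say whether the tables of the genotypes share 1 scale. The main test was limma 3.58.1 with a mean-variance trend in R 4.3.3. Values entered as log2(value + 1), genes with a mean value under 1 were left out, and p-values were adjusted by Benjamini-Hochberg over 2600 genes, with a threshold of 0.05. This scale understates the change of low genes. The interaction with GE used the deposited values.

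The labels do not say that replicates came from separate animals, so p-values measure only the spread between these libraries. An exact permutation test of 3 against 3 cannot go below 0.1. Replicate libraries differed by more than sampling noise (chi-square of 55.1 to 154 per degree of freedom), so none was counted as a repeat. A gene with 3 reads or fewer in each library of a group was taken as being at the floor, and its fold is a lower bound. This limit covers counting error only.

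Genes named are the 15 largest rises and 15 largest falls among called genes with a symbol and no overlap, the 5 called genes in each direction with the most reads, list members that passed, all Notch effectors, and up to 4 members of each list with the most reads that did not pass. The members and lists were chosen with earlier results of these data known. The test was checked on simulated data. Alternatives changed the pseudocount (0.1 or 10), the filter, the scaling, the tool (edgeR, DESeq2 1.42.0), the samples in 1 fit and the replicate block, and left out each library. Sequences came from RefSeq and GENCODE M21, and promoters matched 89 of the 133 and 92 of the 144 called genes.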

Additional observations from a re-analysis of the deposited data

Results flagged for a closer look

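The genes below are some of the named genes whose luminal effect differed from the glandular one, by a limma test of that difference (adjusted p under 0.05). The value given is the log2 fold change of E-OEX minus wild type in LE minus that in GE, on the deposited values. Other named genes passed too, among them Clca3a2 with 6.67, Wnt4 with 5.36, Lif with 4.93, Myl9 with -4.89 and Plk2 with -3.78. The value was positive for genes that rose more in LE than in GE. The secreted protein gene Lgi2 had 7.49. Among transporters and channels, Aqp5 had 5.98, Slc34a2 5.91, Slco2a1 5.84 and Slc40a1 3.98. Other secreted and surface genes were Hp with 5.17, Ggt1 with 5.15, Fbn2 with 4.12 and Upk1a with 3.84. Enzymes were Galnt5 with 4.52 and Hsd17b14 with 4.28, and the cell division genes were Pif1 with 4.96, Cenpa with 3.12 and Ccnf with 3.08. Gng12 had 3.06, falling in GE, and Heyl had 3.02.

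The value was negative for genes that fell more in LE than in GE. Membrane genes were Tm4sf4 with -8.24, Tm4sf1 with -6.56, Cwh43 with -6.56, Ntrk3 with -6.41 and Grid2ip with -6.08. Efhd1 had -8.23, the secreted proteins Nptx2, Areg and Sparcl1 had -7.49, -5.91 and -5.48, and Myl3 had -6.15. The regulators Zbtb16, Nr4a3 and Cdkn1c had -6.40, -5.97 and -5.56. The lysosomal gene Ctsd had -2.94. Tm4sf4 and Nptx2 fell in LE and rose in GE, where their log2 fold changes were 2.42 and 2.23 (limma adjusted p = 0.00352 and 0.00557). Hey2 had -3.30 without a called change in LE, since it rose in GE.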

How the results depend on the processing

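Of 96 named genes followed through the alternatives, 76 passed in the main test. Of these, 28 passed in each alternative that kept all 6 libraries, and 26 in all 17 alternatives. Further named genes that did not pass, such as Erbb2 and Ptgs1, are outside the 96. Against 277 genes (133 higher, 144 lower), no filter on low values gave 105 (61 higher, 44 lower), which tests 2933 genes in place of 2600. DESeq2 on the recovered reads gave 453 (234 higher, 219 lower) and 1 fit over the 4 wild-type and E-OEX groups gave 564 (280 higher, 284 lower), and the cause was not tested. Of the 277 genes, 90, 275 and 275 were shared with these 3 alternatives. Leaving out 1 library gave 56 to 323 genes, with 37 to 166 higher and 17 to 179 lower. The difference between LE and GE, with 315 genes, ranged from 263 to 400 over the other settings and from 179 to 449 with 1 of 12 libraries left out, including 179, 192 and 209 without wild-type GE replicates 3, 1 and 2. An edgeR fit of that difference was not run.

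Among the named genes followed through the alternatives, signs turned for 3 that did not pass. Hey2 had -0.07 without wild-type LE replicate 2 and -0.18 without E-OEX replicate 3, in a range up to 0.76. Lfng had -0.26 without wild-type replicate 3 and -0.25 without E-OEX replicate 1, in a range up to 0.43. Col1a1 had 0.28 without wild-type replicate 2 and 0.06 without E-OEX replicate 3, in a range down to -2.08. The signs of other named genes that did not pass, such as Notch4, Psen2, Ptgs1 and Ptgs2, were not followed. None of the 277 genes had the opposite sign in any of the 17 alternatives. With a replicate block, 292 genes passed (139 higher, 153 lower), of which 252 were among the 277, and 314 passed for the difference between LE and GE. Same-numbered wild-type and E-OEX LE libraries had correlations of -0.28, 0.19 and 0.07 of their deviations from the group means. Differently numbered ones had -0.41 to 0.34. Whether LE and GE libraries of the same number belong together was not tested, and the main test of the difference between LE and GE treats them as unpaired. With 3 libraries in a group, the test called 22% of simulated 4-fold changes, so changes of 4-fold or less were mostly missed.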

Other observations

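Mitochondrial ribosomal RNA was lower in E-OEX LE. The small subunit gene mt-Rnr1 read 2545, 4095 and 4053 in wild-type replicates 1 to 3 and 567, 317 and 416 in E-OEX replicates 1 to 3. It fell by 3.04 on the log2 scale with an SE of 0.43 (limma adjusted p = 0.00395), and passed in all 17 alternatives. The large subunit gene mt-Rnr2 read 1065, 1732 and 2001 in wild type and 675, 349 and 248 in E-OEX, falling by 1.99 with an SE of 0.50 (limma adjusted p = 0.0333). The mt-Rnr2 call was lost without wild-type replicate 2, wild-type replicate 3, E-OEX replicate 2 or E-OEX replicate 3, on the values as deposited and with no filter on low values, with adjusted p-values of up to 0.168. Both genes were chosen after their values were seen. The share of ribosomal RNA in a library also depends on how RNA was selected, which the labels do not state, and its part in these values was not tested.

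Some called genes lay beside each other. Within 100 kb there were 20 pairs of consecutive called genes, and the 2 members of all 20 moved in the same direction. Among consecutive tested genes within 100 kb, the signs of the log2 fold changes were the same in 435 of 703 pairs (61.9%), and in 352 of the 603 whose genes do not overlap (58.4%). Examples are the histidine-degrading enzymes Hal (-3.26) and Amdhd1 (-3.05) and the metalloreductases Steap1 (4.84) and Steap2 (2.34). In 8 of the pairs the genes overlap, as do Slco2a1 and Gm47468 or Il17rb and Actr8, and for those the reads of the 2 genes cannot be told apart without knowing whether strand was used in counting.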
